A study of Mus musculus with 24 samples.

Results

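The genes described here encode 7 chains of the receptors that use the common gamma chain: the gamma chain itself (Il2rg), the alpha and beta chains of the interleukin-2 receptor (Il2ra and Il2rb), and the ligand-specific chains for interleukins 7, 15, 21 and 4 (Il7r, Il15ra, Il21r and Il4ra). They were chosen by name, as the rows of the count tables that carry these symbols, and all 7 of the 7 were found among 48526 genes and passed the filter on low counts. The libraries hold poly-A RNA of T cells from OT-1 mice, a strain with a transgenic T cell receptor for an ovalbumin peptide, purchased as a stock of the Jackson Laboratory. Whole splenocytes, and not purified T cells, were cultured with peptide at 2 µg/mL, so an added agonist could reach every spleen cell in the dish. T cells were then taken by negative selection with magnetic beads, and the labels name them CD8+ T cells. There were 6 groups of 4 libraries: peptide alone (labelled OVA), peptide with a TLR2 agonist and peptide with a TLR7 agonist, each at 24 h and at 72 h, all from OT-1 animals, with no other allele named. Agonists went in before the peptide. The protocol lists Pam3CSK4, a TLR2 ligand, at 300 ng/mL, and both Gardiquimod at 3 µg/mL and R848 at 10 µg/mL as TLR7 ligands, and does not say which of the latter the TLR7 libraries received. Ages, the number of mice and whether replicates came from separate mice or cultures are not given in the labels, and p-values therefore gauge only the spread among these libraries, which may be technical.

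Receptors of this family share the gamma chain, which pairs with a second chain that sets the ligand and signals through the kinases JAK1 and JAK3 to STAT5, STAT3 or STAT6. The interleukin-2 and interleukin-15 receptors also share the beta chain, and the alpha chain of each raises its affinity for its own ligand. In CD8 T cells, antigen is known to raise the interleukin-2 receptor alpha chain and to lower the interleukin-7 receptor, which marks naive cells and cells that go on to form memory.

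Library totals ran from 10.5 to 27.1 M counts (M, mega), with 5 libraries at 11.7 M or below, namely replicates 1 and 2 of TLR7 at 72 h, replicate 2 of TLR7 at 24 h, and replicate 4 of OVA and of TLR2 at 24 h. Counts of the 7 genes ran from 129 (Il7r) to 52945 (Il2ra) per library, well above a floor of 3 counts. On the first principal component of all tested genes, which held 60.2% of the variance, 8 libraries lay between the others of 24 h and of 72 h. They were replicates 1 and 3 of OVA at 24 h, replicates 3 and 4 of TLR7 at 24 h, replicate 4 of OVA at 72 h, and replicates 1, 3 and 4 of TLR2 at 72 h. They are called intermediate libraries below, and results that rest on them are given with and without them. The summed level of 9 CD8 T cell markers was 2014 to 4467 CPM (counts scaled to TMM-adjusted library size) over all libraries, with every marker present. The sum of 10 B cell markers was 94.4 to 240.1 CPM in OVA at 24 h, 120.2 to 159 CPM in TLR2 at 24 h and 26.3 to 49.5 CPM in TLR7 at 24 h. At 72 h the same sum was 5.58 to 44.96 CPM in OVA, 7.81 to 92.5 CPM in TLR2 and 6.29 to 10.8 CPM in TLR7, and no marker was at 0 in all libraries of a group. The sum of 5 markers of CD4 and regulatory T cells was highest in TLR7 at 72 h, at 56.2 to 75.9 CPM, against 30.6 to 62.0 CPM in OVA at 72 h. Over time in TLR7, 6 of the 8 marker sums did not overlap: those of CD8 T cells and of CD4 and regulatory T cells were higher at 72 h, and those of B cells, NK cells, macrophages and monocytes, and neutrophils lower. In TLR7 against TLR2 at 72 h, 4 did not (CD4 and regulatory T cells higher; NK cells, macrophages and monocytes, and dendritic cells lower), and in TLR7 against OVA at 72 h 0. Macrophage and monocyte markers stood apart in replicate 3 of OVA at 72 h, at 66.0 CPM against 5.05 to 9.005 CPM in the rest of its group, and in replicate 2 of OVA at 24 h, at 56.8 CPM, which also held 104 CPM of neutrophil markers. In such bulk samples, fewer cells that carry a transcript and less of it per cell cannot be told apart, and the part of other cell types in the results below was not tested.

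Among the genes, 2 pairs are direct neighbours on build GRCm38. Il2ra (ENSMUSG00000026770) spans chr2:11642807-11693193 and Il15ra (ENSMUSG00000023206) chr2:11705290-11734317, both on the plus strand, 12.1 kb apart with 0 protein-coding genes between them. Il4ra (ENSMUSG00000030748) spans chr7:125552120-125579474 and Il21r (ENSMUSG00000030745) chr7:125603429-125633570, again both on the plus strand, 24.0 kb apart with 0 protein-coding genes between them. Il2rb (ENSMUSG00000068227) lies at chr15:78479256-78495271 and Il7r (ENSMUSG00000003882) at chr15:9505788-9530176, both on the minus strand, and Il2rg (ENSMUSG00000031304) at chrX:101264378-101268255 on the minus strand. Annotated genes overlap 3 members: Gm37881 in Il2ra, Gm20489 with Il2rg and Gm44876 antisense to Il4ra. Each held at most 0.670% of its member's count in any library.

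Il2ra and Il15ra are neighbours, and TLR7 at 72 h had the highest mean of the first and the lowest of the second. No comparison of 2 groups called both genes. Il7r had the widest range of levels. The stretches before the start sites of Il2ra, Il15ra and Il7r are shown for these reasons. They come from RefSeq (GRCm38.p6), which had an entry for 6 of the 7 genes, and hold the longest stretch without an annotated exon within the 250 bases before a start, 5′ to 3′ on the gene's strand. Capitals mark matches to any of 4 motifs searched on both strands: STAT (TTCNNNGAA), AP-1 (TGANTCA), NF-kB (GGG and TTTCC with 2 bases between) and ISRE (2 copies of GAAA with 2 bases between).
Il2ra, chr2:11642542-11642791, plus strand: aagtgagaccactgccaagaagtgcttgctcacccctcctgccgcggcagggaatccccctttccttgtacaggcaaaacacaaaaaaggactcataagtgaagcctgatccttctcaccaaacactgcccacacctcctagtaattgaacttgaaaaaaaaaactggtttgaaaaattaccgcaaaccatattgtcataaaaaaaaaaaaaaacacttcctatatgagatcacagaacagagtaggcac
Il15ra, first start, chr2:11705043-11705289, plus strand: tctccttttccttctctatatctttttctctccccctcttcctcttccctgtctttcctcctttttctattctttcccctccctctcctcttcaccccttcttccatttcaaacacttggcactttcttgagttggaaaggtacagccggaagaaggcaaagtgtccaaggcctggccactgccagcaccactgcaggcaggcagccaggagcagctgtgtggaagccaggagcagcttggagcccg
Il15ra, second start, chr2:11705579-11705711, plus strand: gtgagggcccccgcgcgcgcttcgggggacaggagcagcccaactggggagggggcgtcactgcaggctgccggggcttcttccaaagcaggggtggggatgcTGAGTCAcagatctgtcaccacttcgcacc
Il7r, chr15:9529877-9530040, minus strand: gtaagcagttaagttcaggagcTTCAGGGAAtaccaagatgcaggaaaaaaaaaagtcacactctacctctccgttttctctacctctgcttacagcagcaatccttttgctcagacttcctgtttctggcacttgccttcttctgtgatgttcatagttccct

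The Il7r stretch holds 1 STAT match, TTCAGGGAA, from 142 to 134 bases before the start. The second Il15ra start has 1 AP-1 match, TGAGTCA, from 30 to 24 bases before it, and none of the 4 motifs matched before Il2ra or the first Il15ra start. Only the letters given were searched and looser forms of the 4 motifs were not, so a missing match does not mean that such a site is absent. Over all 32851 windows of 250 bases before a start, 7.02% held the STAT letters, 6.75% AP-1, 1.41% NF-kB and 2.98% ISRE. GC content was 42.4% before Il2ra and 44.0% before Il7r, against a median of 52.4% over all windows, and 60.4% before the second Il15ra start. By the gene positions given above, the stretches of Il7r and of the second Il15ra start lie inside the annotated gene. Those of Il2ra and of the first Il15ra start lie before it. The motif matches are descriptions of letters and no binding was measured.

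Over the 6 groups together, 6 of the 7 genes differed past an adjusted p of 0.05 (edgeR's quasi-likelihood test, Benjamini-Hochberg over 14560 genes), where 63.3% of all tested genes did. Whether the members' share differs from that of all genes was not tested. The exception was the gamma chain, Il2rg, with an adjusted p of 0.0720. The differences lay mainly between the times and in TLR7 at 72 h. In TLR7, 72 h against 24 h, 4 members were called where 43.2% of all genes were. In TLR2 over time 2 members were called (39% of all genes), and in OVA over time 1 (18.6% of all genes). Between agonists at 72 h, 1 member was called for TLR7 against OVA (3.62% of all genes) and 1 for TLR7 against TLR2 (4.8% of all genes).

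**Figure D1:**
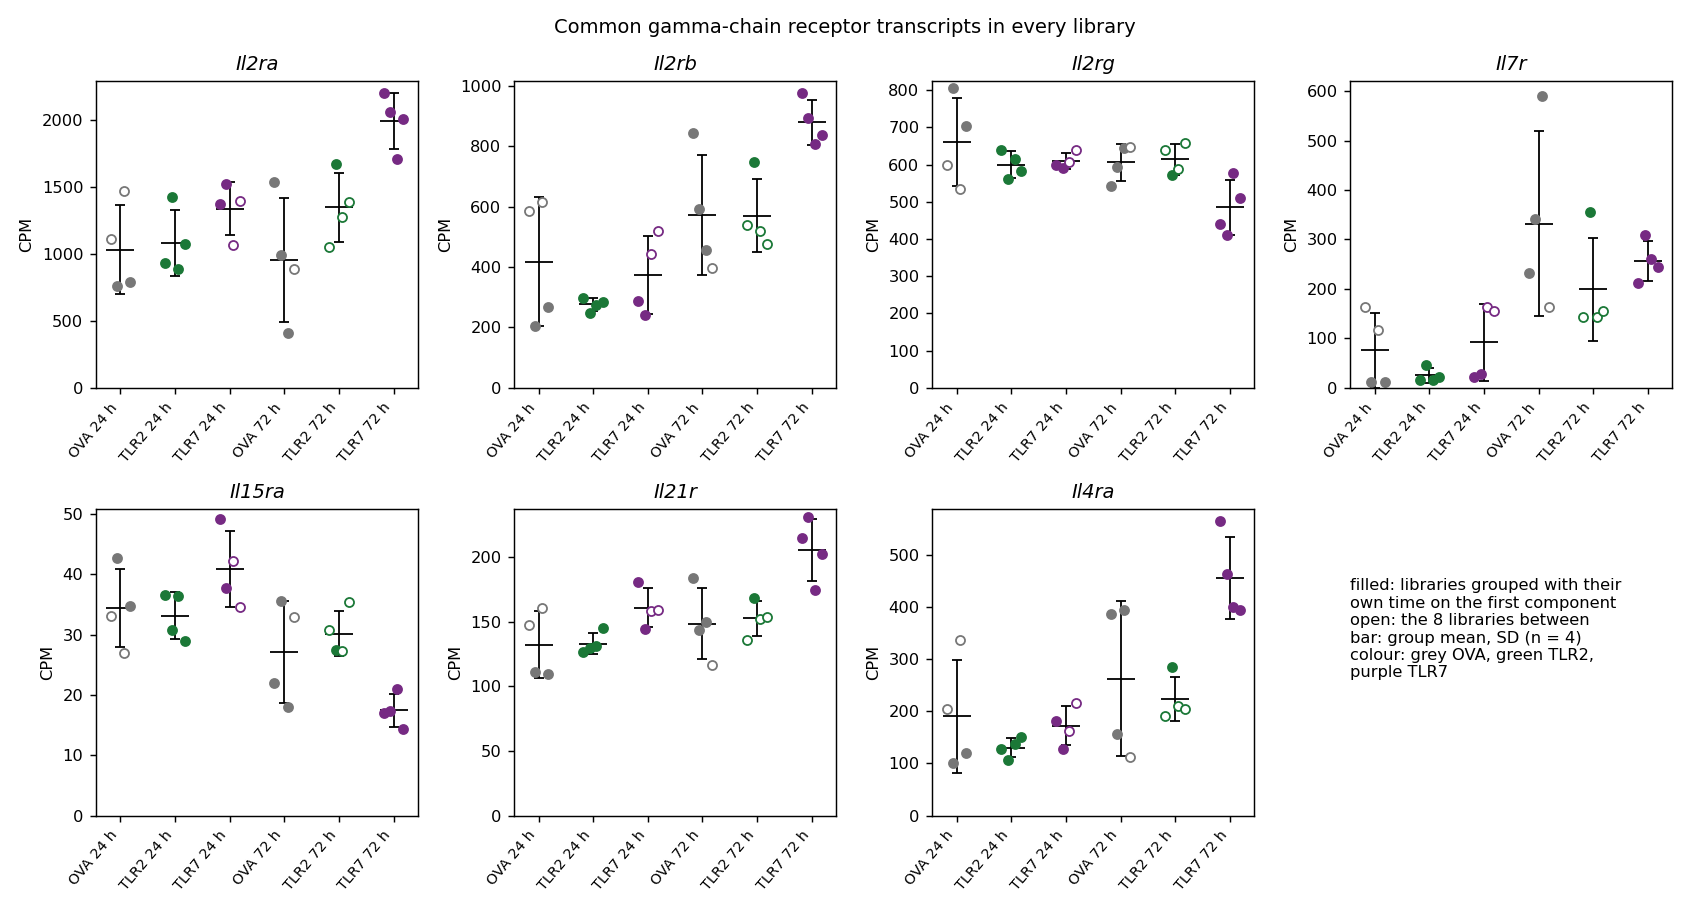
Each panel plots 1 gene in CPM (linear axis from 0) for the 4 libraries of each of the 6 groups, with the group mean and SD; open points are the 8 intermediate libraries. The 4 TLR7 libraries at 72 h lie above every other group for Il2ra, at 1706 to 2199 CPM, and below every other library but 1 of OVA at 72 h for Il15ra, at 14.4 to 21.03 CPM.

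Il2ra, the alpha chain (CD25) that gives the interleukin-2 receptor its high affinity, was high in every library and highest in the TLR7 libraries of 72 h. In OVA at 24 h it stood at 1109, 759, 1469 and 787 CPM in replicates 1 to 4. In TLR2 at 24 h it was 935, 1425, 884 and 1076 CPM, and in TLR7 at 24 h 1371, 1525, 1064 and 1396 CPM. The 3 groups of 24 h overlapped throughout. At 72 h, OVA libraries held 1533, 993, 410.5 and 888 CPM, TLR2 libraries 1053, 1671, 1279 and 1385 CPM, and TLR7 libraries 2199, 2060.2, 1706 and 2007 CPM. Every TLR7 library of 72 h was thus above every library of the other 5 groups, while neighbouring groups in the order below it (TLR2 at 72 h, TLR7 at 24 h, TLR2 at 24 h, OVA at 24 h, OVA at 72 h) overlapped. Against OVA at 72 h, Il2ra was higher with TLR7 by 1.06 ± 0.28 on the log2 scale (SE, n = 4 per group), or 2.08-fold, with an adjusted p of 0.0380 by edgeR. Against TLR2 at 72 h the difference was 0.57 (95% interval -0.01 to 1.14), which was not called (adjusted p = 0.198), though the 2 groups did not overlap. The call against OVA rests on few libraries: the adjusted p was 0.0861, 0.0936 and 0.112 without OVA replicate 2, 3 or 4, and 0.131, 0.0976 and 0.123 without TLR7 replicate 1, 2 or 4, at differences of 0.81 to 1.44 over all single omissions. OVA replicate 3, the library with the lowest Il2ra and without which the difference was 0.81, also held its group's lowest Il15ra, its highest Il7r and the high sum of macrophage markers given above, whose part in these values was not tested. Without the intermediate libraries it was 1.05, with an adjusted p of 0.103.

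Il2rb, the beta chain that the receptors for interleukins 2 and 15 share, was higher at 72 h than at 24 h with either agonist. OVA libraries held 584, 204, 616 and 269 CPM at 24 h and 845, 594, 455 and 396 CPM at 72 h. TLR2 libraries held 298, 249, 274 and 285 CPM at 24 h and 539, 746, 520.3 and 475 CPM at 72 h. TLR7 libraries held 288, 242, 442 and 519 CPM at 24 h and 978, 894, 808 and 836 CPM at 72 h. The times did not overlap in TLR2 or TLR7 and did in OVA, where the intermediate replicates 1 and 3 of 24 h were each above replicates 3 and 4 of 72 h. Il2rb rose by 1.04 ± 0.30 (log2, SE) in TLR2 over time, with an adjusted p of 0.0163, and by 1.24 ± 0.31 in TLR7, with an adjusted p of 0.00435 (edgeR). Without replicate 2 of TLR2 at 72 h the first of these was 0.89, with an adjusted p of 0.0743. The TLR7 call was lost without the shallow libraries (adjusted p = 0.123 by edgeR). In OVA the difference was 0.45 (95% interval -0.17 to 1.08) with all libraries and 1.43 ± 0.25 without the intermediate ones. TLR7 at 72 h had the highest mean, 879 ± 74.8 CPM (SD, n = 4), and its lowest library, 808 CPM, was below 1 OVA library.

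Il2rg, the gamma chain that every receptor of the family uses, varied least. Its lowest library was at 412 CPM and its highest at 805 CPM. OVA libraries held 598, 805, 535 and 704 CPM at 24 h and 541, 594, 644 and 646 CPM at 72 h. TLR2 libraries held 640.0, 560.3, 616 and 584 CPM at 24 h and 640.4, 571, 588 and 659 CPM at 72 h. TLR7 libraries held 599, 589.9, 608 and 638 CPM at 24 h and 441, 412, 578 and 511 CPM at 72 h, so the 2 times did not overlap there and TLR7 at 72 h had the lowest mean, 485 ± 74.4 CPM. Its difference over time in TLR7, -0.33 ± 0.13 (log2, SE), was called with an adjusted p of 0.0432 (edgeR). That call did not outlast most changes: the adjusted p was 0.0768, 0.0698, 0.0511 and 0.0804 without replicate 1, 2, 3 or 4 of 24 h, and 0.117 and 0.136 without replicate 1 or 2 of 72 h. Those last 2 are the shallow libraries of TLR7 at 72 h and held the lowest Il2rg levels, while the shallow replicate 2 of 24 h held 589.9 CPM. With RLE scaling the adjusted p was 0.0536.

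Il7r, the ligand-specific chain for interleukin 7 (CD127), had the widest range, from 11.4 to 591 CPM. OVA libraries held 163, 12.4, 116 and 11.4 CPM at 24 h and 233, 341, 591 and 164 CPM at 72 h. TLR2 libraries held 15.7, 46.7, 16.4 and 21.5 CPM at 24 h and 143, 356, 143 and 156 CPM at 72 h. TLR7 libraries held 22.1, 27.2, 164 and 156 CPM at 24 h and 213, 309, 261 and 244 CPM at 72 h. The times did not overlap in any of the 3 treatments. In OVA they nearly touched, at 163.0 CPM in replicate 1 of 24 h and 164.0 CPM in replicate 4 of 72 h, both intermediate libraries. With all libraries, Il7r rose by 2.99 ± 0.77 (log2, SE) in TLR2 over time, with an adjusted p of 0.0100, and by 2.13 ± 0.74 in OVA, with an adjusted p of 0.0498 (edgeR). In TLR7 the difference of 1.47 (95% interval -0.04 to 2.99) missed the threshold, with an adjusted p of 0.104. The OVA call was lost without replicate 2, 3 or 4 of 24 h (adjusted p = 0.164, 0.0524 and 0.139, at differences of 1.67, 2.33 and 1.77). It was also lost without replicate 1, 2 or 3 of 72 h (adjusted p = 0.0798, 0.110 and 0.138, at differences of 2.15, 2.00 and 1.70).

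Most of the spread of Il7r within groups fell between the intermediate libraries and the rest. The 8 other libraries of 24 h held 11.4 to 46.7 CPM, the 8 intermediate libraries 116 to 164 CPM whatever their label, and the 8 other libraries of 72 h 213 to 591 CPM. It was the 1 member of 7 whose 3 sets did not overlap, and for 6 of 7, all but Il2rg, the intermediate median lay between the other medians. These sets were formed from the expression of all tested genes, these 7 included, so their order is a description and not a test. Without the intermediate libraries the difference over time for Il7r was 5.01 ± 0.50 in OVA and 3.39 ± 0.45 in TLR7 (log2, SE). In TLR2 it was 3.86, with 1 library left at 72 h, replicate 2 at 356 CPM. At 24 h, OVA kept replicates 2 and 4 and TLR7 kept replicates 1 and 2. The differences between agonists at 24 h did not persist: TLR2 against OVA went from -1.60 to 1.07, and TLR7 against TLR2 from 1.88 to 0.03, neither called with or without those libraries.

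Il15ra, which binds interleukin 15 and presents it to cells with the beta and gamma chains, was at or below 49.1 CPM in every library and was lowest in TLR7 at 72 h, where its neighbour Il2ra was highest. OVA libraries held 33.1, 42.6, 26.9 and 34.7 CPM at 24 h and 21.9, 35.6, 18.02 and 33.0 CPM at 72 h. TLR2 libraries held 36.5, 30.8, 36.4 and 28.9 CPM at 24 h and 30.7, 27.4, 27.2 and 35.3 CPM at 72 h. TLR7 libraries held 49.1, 37.7, 42.2 and 34.5 CPM at 24 h and 17.0, 17.4, 21.03 and 14.4 CPM at 72 h. The last group did not overlap with any other except OVA at 72 h, whose replicate 3 lay within it. In TLR7 over time Il15ra fell by 1.23 on the log2 scale (SE 0.20), to 0.427 of its 24 h level, with an adjusted p of 5.02e-04 (edgeR), and kept the call under every single omission, with adjusted p from 5.24e-04 to 0.00377. Without the shallow libraries together, Il15ra was not called over time in TLR7 (adjusted p = 0.0775 by edgeR). At 72 h it was lower with TLR7 than with TLR2 by a log2 difference of -0.79 ± 0.20, with an adjusted p of 0.0300. That call was lost without TLR2 replicate 1, 3 or 4 (adjusted p = 0.0886, 0.0720 and 0.102) and without TLR7 replicate 1, 2 or 4 (adjusted p = 0.110, 0.0841 and 0.123), at differences of -0.90 to -0.71. Those TLR2 replicates are intermediate libraries and no TLR7 library of 72 h is, and the part of that status in the difference was not tested. TLR2 replicate 2, the only library of its group that is not intermediate, held 27.4 CPM, above every TLR7 library of 72 h. Against OVA at 72 h the difference of -0.64 (95% interval -1.04 to -0.23) had an adjusted p of 0.0693. Single omissions gave -0.79 to -0.43 with adjusted p from 0.0282 to 0.299, below the threshold without OVA replicate 1 or 3 (0.0481 and 0.0282) and above it without each of the other 6 libraries.

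Il21r, the ligand-specific chain for interleukin 21, covered a narrow range. OVA libraries held 147, 111, 161 and 109.9 CPM at 24 h and 183, 144, 149 and 116 CPM at 72 h. TLR2 libraries held 126, 129.7, 131 and 145 CPM at 24 h and 136, 169, 152 and 153 CPM at 72 h. TLR7 libraries held 181, 144, 158 and 159 CPM at 24 h and 215, 231, 174 and 202 CPM at 72 h. TLR7 at 72 h had the highest mean, 206 ± 24.0 CPM (SD, n = 4), above every TLR2 library of 72 h and overlapping with OVA at 72 h and with its own 24 h group. None of its pairwise differences was called. The nearest were TLR7 over time at 0.36 (95% interval 0.05 to 0.66, adjusted p = 0.0520), TLR7 against OVA at 72 h at 0.47 (0.17 to 0.77, adjusted p = 0.0699) and TLR7 against TLR2 at 72 h at 0.43 (0.13 to 0.73, adjusted p = 0.0772), all by edgeR. DESeq2 on the same counts called all 3, with adjusted p of 0.0293, 0.0157 and 0.0268. Over all 18 alternatives these differences ran from 0.18 to 0.43, 0.35 to 0.67 and 0.31 to 0.50, with adjusted p up to 0.531, 0.616 and 0.632, and were called under 5, 2 and 2 of them.

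Il4ra, which pairs with the gamma chain for interleukin 4 and signals through STAT6, was highest in TLR7 at 72 h. OVA libraries held 204, 100.1, 337 and 119 CPM at 24 h and 386, 157, 393 and 113 CPM at 72 h. TLR2 libraries held 127, 107, 137 and 151 CPM at 24 h and 191, 285, 211 and 205 CPM at 72 h. TLR7 libraries held 182, 128, 163 and 217 CPM at 24 h and 564, 462, 400.2 and 394 CPM at 72 h. All 4 libraries of the last group were above all libraries of the other 5, by less than 1 CPM at the closest, where OVA replicate 3 of 72 h held 393 CPM. In TLR7 over time Il4ra rose by 1.40 ± 0.36 (log2, SE), or 2.64-fold, with an adjusted p of 0.00540 (edgeR). That call was lost without the shallow libraries (adjusted p = 0.147 by edgeR). In TLR2 over time the groups did not overlap either, and the difference of 0.77 (95% interval 0.04 to 1.51) had an adjusted p of 0.0840. At 72 h the difference of TLR7 from TLR2, 1.03 (95% interval 0.29 to 1.77), had an adjusted p of 0.0839, and that from OVA, 0.80 (0.06 to 1.53), one of 0.224. In OVA, replicates 1 and 3 were above replicates 2 and 4 at both times. The intermediate libraries of OVA are replicates 1 and 3 at 24 h and replicate 4 at 72 h.

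**Figure D2:**
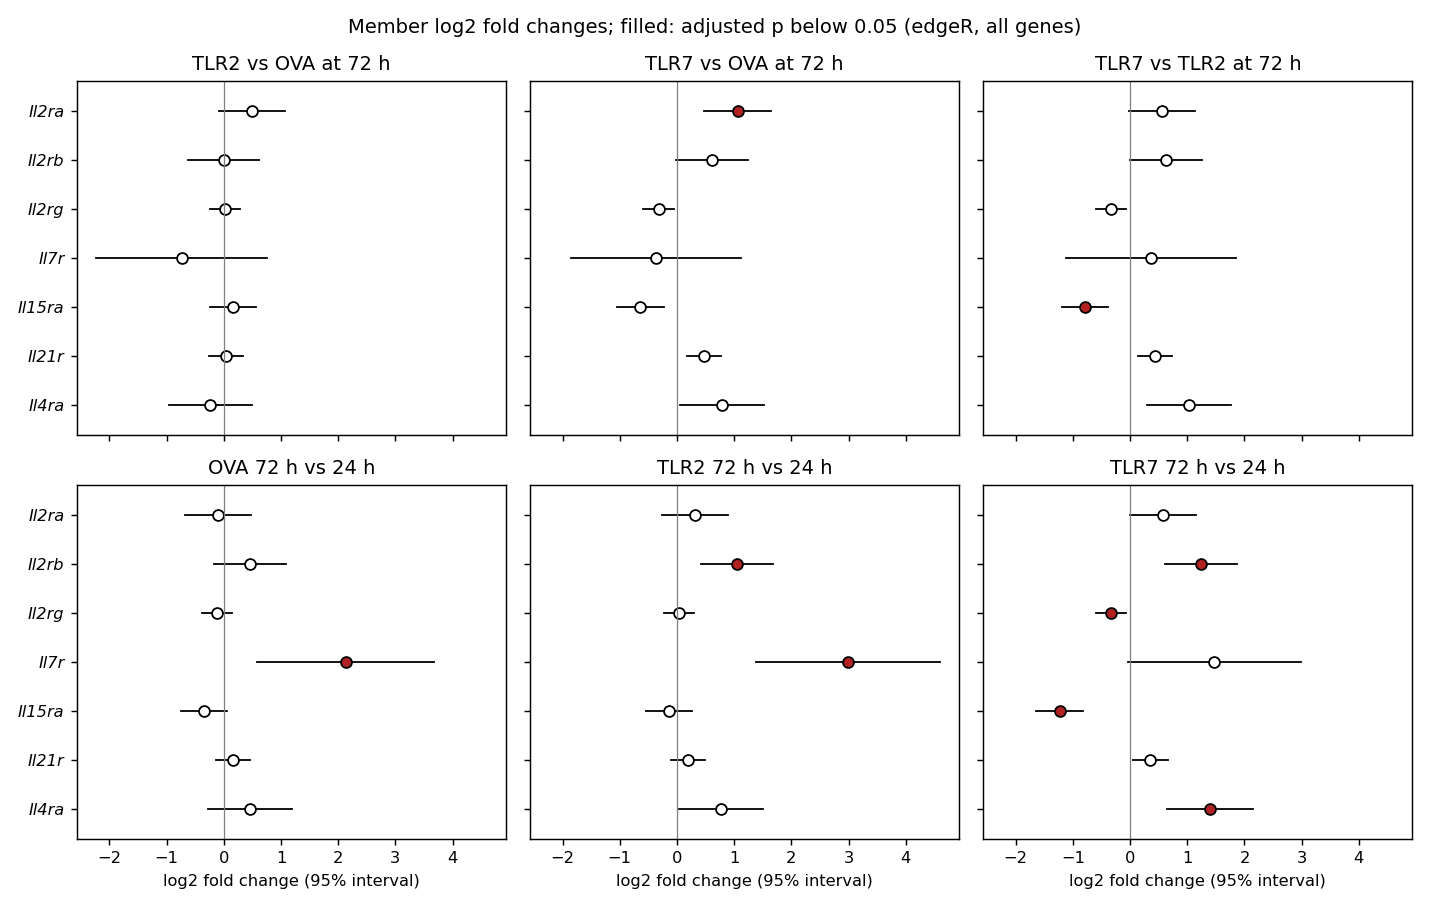
Log2 fold changes of the 7 genes with 95% intervals for the 3 comparisons of agonists at 72 h (upper panels) and the 3 comparisons of 72 h with 24 h (lower panels); filled points passed an adjusted p of 0.05 over all genes by edgeR. The upper panels hold 2 filled points, Il2ra at 1.06 and Il15ra at -0.79, and the lower panels 7.

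The comparisons of agonists at 24 h called 0 of the 7 by edgeR. For TLR7 against OVA at 24 h, log2 differences ran from -0.17 (Il2rb) to 0.38 (Il2ra), with intervals that together spanned -1.20 to 1.77, and 0 members had an unadjusted p below 0.05 (0.22% of all genes were called). For TLR7 against TLR2 at 24 h (1.24% of all genes called), all 7 differences were positive, from 0.02 (Il2rg) to 1.88 (Il7r), and 1 member had an unadjusted p below 0.05. TLR2 against OVA called 0% of all genes at either time. Its member differences ran from -1.60 (Il7r) to 0.07 (Il2ra) at 24 h and from -0.74 (Il7r) to 0.49 (Il2ra) at 72 h, with 1 and 0 members at an unadjusted p below 0.05. DESeq2 called 0 members in each of these 4 comparisons as well, beside 246, 1016, 345 and 82 of all genes in the order given.

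At 72 h, TLR7 against OVA had a median member difference of 0.47 beside -0.08 over all genes, and TLR7 against TLR2 one of 0.43 beside -0.03. Ranges of the libraries did not overlap for 2 members in the first, Il2ra and Il4ra, both higher (3.41% of all genes were apart in that direction). For Il4ra the margin was the one of less than 1 CPM given above. In the second, 4 members were apart and higher, Il2ra, Il2rb, Il21r and Il4ra (12.9% of all genes), and Il15ra was apart and lower (10.7% of all genes). Both comparisons share the TLR7 libraries, 2 of which are shallow. None of these TLR7 libraries is intermediate, while replicates 1, 3 and 4 of TLR2 and replicate 4 of OVA at 72 h are. Over time, 4 members were apart and higher in TLR7, Il2ra, Il2rb, Il7r and Il4ra (21.9% of all genes), and 2 were lower, Il2rg and Il15ra (26.6% of all genes). In TLR2 over time Il2rb, Il7r and Il4ra were apart and higher (27% of all genes), and in OVA 1 member, Il7r (6.79% of all genes), by the narrow margin given above.

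Whether an agonist's effect differed between the times was tested directly as an interaction. By edgeR, 0 of the 7 passed for TLR7 (0.81% of all genes) and 0 for TLR2 (0% of all genes). The member nearest the threshold was Il15ra for TLR7, where the effect at 72 h was lower than that at 24 h by a log2 difference of -0.89 ± 0.27, with an adjusted p of 0.114 and an unadjusted p of 0.00382. It was the 1 member with an unadjusted p below 0.05 in either interaction, and DESeq2 called 0 members in both, beside 457 of all genes for TLR7 and 2 for TLR2. For Il4ra the TLR7 interaction was 0.94 (95% interval -0.10 to 1.97) and for Il2ra 0.68 (-0.13 to 1.498), so differences of either size between the times were not resolved.

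**Figure D3:**
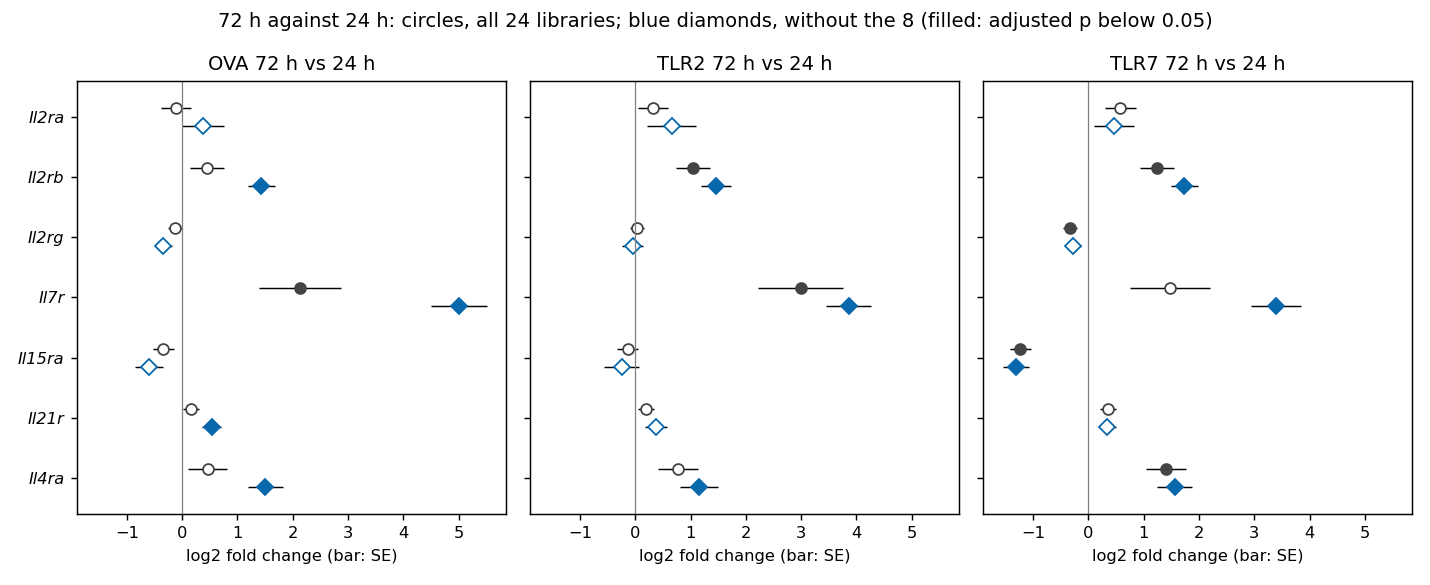
Log2 fold change of 72 h over 24 h with its SE for each gene, with all 24 libraries (circles) and without the 8 intermediate libraries (diamonds), filled where the adjusted p was below 0.05. Il7r moved most, from 2.13 to 5.01 in OVA, and the 3 treatments called 1, 2 and 4 members with all libraries.

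Without the 8 intermediate libraries, more members were called over time in OVA and TLR2 and as many in TLR7, where Il7r took the place of Il2rg. In OVA 4 were called, Il2rb, Il7r, Il21r and Il4ra, all higher at 72 h (48.5% of all genes called). In TLR2 3 were called, Il2rb, Il7r and Il4ra, all higher (43.4% of all genes), with 1 library left in the 72 h group that was assumed to vary like the others. In TLR7 4 were called, Il2rb, Il7r and Il4ra higher and Il15ra lower (52.1% of all genes). For Il4ra the differences were 1.505, 1.15 and 1.56 in OVA, TLR2 and TLR7, and for Il2rb 1.43, 1.46 and 1.74. Those of Il2ra were 0.38, 0.66 and 0.47, none of them called. The libraries left out were those between the times on a component built from the same expression, so wider differences over time without them are built into that choice, and these calls are a description.

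Per kilobase of exon, which allows levels of different genes to be compared, Il2rg and Il2ra were the most abundant of the 7 in every group but TLR7 at 72 h, where Il2rb was level with Il2rg. In TLR7 at 72 h, Il2ra had 349 ± 36.4 CPM per kb, Il2rb 205 ± 17.5 and Il2rg 203 ± 31.2 (SD, n = 4). In the other 5 groups Il2rg exceeded Il2rb, and the ratio of Il2rb to Il2rg was 0.257 to 0.540 as a group mean, against 1.03 ± 0.22 in TLR7 at 72 h. The 4 TLR7 libraries of 72 h had ratios of 1.23, 1.21, 0.778 and 0.912, and the highest elsewhere was 0.870, in OVA replicate 1 of 72 h, so the groups overlapped. The length-scaled sum of the 6 other chains was 3.79 ± 0.86 times that of Il2rg in TLR7 at 72 h and 1.32 to 1.97 times as a mean in the other groups. Its libraries there were at 4.45, 4.55, 2.75 and 3.41, and the highest elsewhere was 2.82, again in OVA replicate 1 of 72 h, so these overlapped too. The ratio of Il2ra to Il15ra, the alpha chains of neighbouring genes, was 91.3 ± 19.9 in TLR7 at 72 h, with libraries at 100.7, 92.4, 63.2 and 109, and 25.0 to 35.3 as a mean in the others, whose highest library was at 54.4. These ratios are descriptions; total exon length stands in for the transcripts used.

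**Figure D4:**
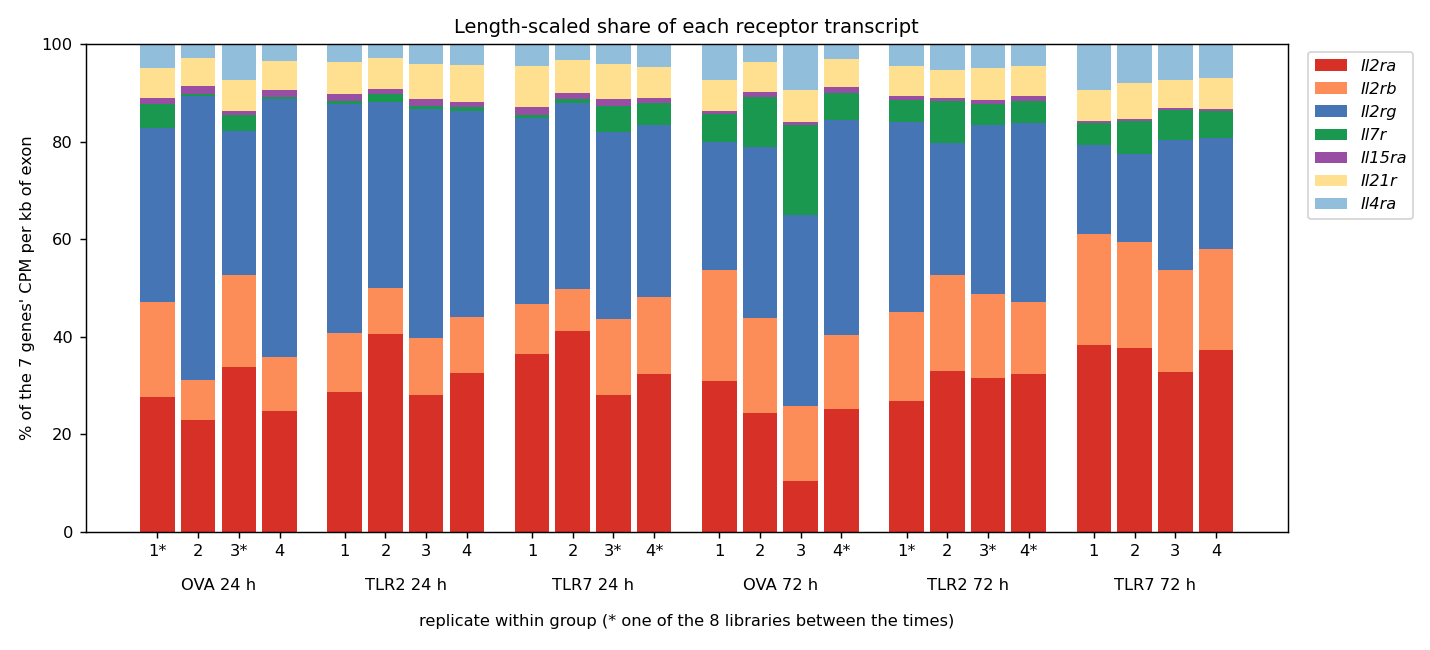
Stacked bars give each gene's share (%) of the 7 genes' summed CPM per kb of exon in each of the 24 libraries, asterisks marking the intermediate ones. Il2rg makes up at most 26.6% in the libraries of TLR7 at 72 h and 26.2% to 58.1% in those of the other groups, while Il7r ranges from 0.438% to 18.4% over all libraries.

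Among the 6 ligand genes of the family, only Il2 and Il21 passed the filter on low counts. Il4, Il7, Il9 and Il15 stayed at or below 1.00 CPM in every library. Il2, the growth factor that T cells make early after activation, was at 15.7, 46.2, 13.2 and 33.3 CPM in OVA at 24 h, 96.3, 77.1, 46.5 and 86.9 CPM in TLR2 and 219, 224, 98.3 and 107 CPM in TLR7. At 72 h it was at 0.252, 0.380, 0.364 and 66.3 CPM in OVA, 17.2, 0.230, 45.7 and 112 CPM in TLR2 and 0.190, 0.0826, 0.359 and 0.152 CPM in TLR7. The 4 libraries of 72 h above 1 CPM were the 4 intermediate ones. In TLR7 over time Il2 was lower by edgeR with an adjusted p of 0.00129, and against TLR2 at 72 h with one of 0.0254, where the 3 intermediate TLR2 libraries held the high values. Il21, whose receptor chain is Il21r, was at 192, 193, 86.6 and 55.9 CPM in TLR7 at 24 h and 2.83, 0.318, 6.39 and 0.177 CPM in OVA at 24 h. That difference, 5.69 ± 1.19 on the log2 scale, had an adjusted p of 0.0461 by edgeR, while Il21r differed between the same groups by 0.28 (95% interval -0.02 to 0.58). The Il21 call rests on few libraries. Without OVA replicate 2 or 4 of 24 h, 0 of all genes were called in that comparison. The same held without TLR7 replicate 1 or 2 of 24 h, and with only the groups compared in the fit. Il21 in TLR2 at 24 h was 14.5, 84.4, 25.9 and 39.0 CPM, above every OVA library, with an adjusted p of 0.176. At 72 h Il21 was at 6.06, 0, 0.273 and 0.0797 CPM in OVA, 2.66, 11.0, 26.8 and 56.9 CPM in TLR2 and 10.3, 8.10, 7.85 and 6.48 CPM in TLR7.

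**Figure D5:**
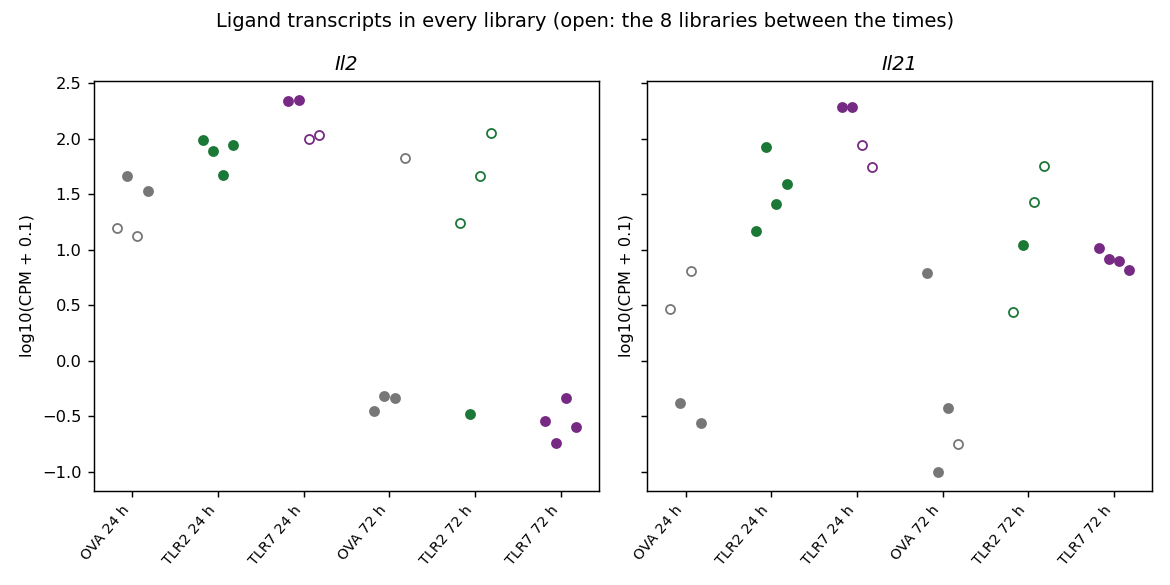
Il2 and Il21 in every library as log10(CPM + 0.1), with open points for the 8 intermediate libraries. At 72 h, Il2 lies at 17.2 to 112 CPM in the 4 intermediate libraries and at or below 0.380 CPM in the other 8.

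The 32 genes of the pathway around these receptors (ligands, other chains, kinases and STATs, feedback inhibitors and targets) were described as a list, of which 28 were tested. In TLR7 against OVA at 72 h (3.62% of all genes called), 1 was called higher and 4 lower, with a median log2 difference of 0.35. Cish, an inhibitor that STAT5 induces, was higher by 1.13 ± 0.27 with an adjusted p of 0.0238, and was also the gene whose 6 group means were most like those of Il2ra. Sh2b3, an adaptor that restrains JAK signals, was lower by a log2 difference of -1.12 (adjusted p = 0.00681), as was the phosphatase Ptpn6 at -0.97 (adjusted p = 0.0281). Stat6, the factor downstream of Il4ra, was lower at -0.52 (adjusted p = 0.0355), where Il4ra itself was not called. In TLR7 against TLR2 at 72 h (4.8% of all genes called), 1 was called higher, the cyclin Ccnd3 at 1.21 (adjusted p = 0.0347), and 4 lower, Il2, Stat5a (-0.91), Ptpn6 (-0.95) and Sh2b3 (-0.77). Without the shallow libraries, 0 of all genes were called for TLR7 at 72 h against OVA or against TLR2, so all of these calls were lost. Without replicate 1 of TLR2 at 72 h, 1 of all genes was called for TLR7 against TLR2.

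Over time in TLR7, 9 of the 28 were called higher and 9 lower (19% and 24.2% of all genes). The largest rises were the feedback inhibitor Socs2 at 2.07, the cytokine Osm at 1.92 and Ccnd3 at 1.82, and the largest falls were Il2, Il21 and Stat5a, the last at -1.74 ± 0.21 with an adjusted p of 1.93e-04 (edgeR). Without the shallow libraries, which leaves 2 libraries at 72 h, 5 of all genes were called for TLR7 over time, so most of these calls were lost. Jak3, the kinase bound to the gamma chain, was higher at 72 h by 1.61 in TLR7 (adjusted p = 0.0145) and by 1.83 in TLR2 (adjusted p = 0.0124), beside an Il2rg that fell by 0.33 in TLR7 and differed by 0.03 in TLR2. In TLR2 over time 8 were called higher and 1 lower, where 39% of all genes were called. The largest rises there were Jak3, the survival gene Bcl2 at 1.72 and Stat3 at 1.23, and the fall was Ccnd2 at -0.80. In OVA over time 2 were called higher and 3 lower, where 18.6% of all genes were called. The rises were Stat3 and Stat5b, both at 1.14, and the falls Bcl2l1 at -1.08, Ccnd2 at -1.01 and Stat5a at -0.69. Without the shallow libraries, or with only the groups compared in the fit, 0 of all genes were called for OVA over time, so these calls were lost. Single omissions gave 0 to 4709 of all genes called. In TLR7 against OVA at 24 h Il21 was the 1 call, higher (0.22% of all genes called), and it was lost under the omissions given above.

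Among the 7, the most alike in their 6 group means of centred log2 CPM were Il2rb and Il4ra, with a root mean square difference of 0.13, and the least alike Il7r and Il15ra, at 1.69. Il2ra was closest to Il21r, at 0.22, and Il2rg to Il15ra, at 0.28. Among 9106 other genes with a mean of at least 5 CPM, those nearest to Il2ra were Cish, Ndst1 and Sytl3, at 0.07 to 0.09. Nearest to Il2rb were Eno1, Slc8b1 and Lonp1, and to Il4ra Pcbp4, Cers4 and Eno1, so that Eno1, a glycolytic enzyme, was among the nearest for both. Il2rg was nearest to Arhgef2, Cdyl2 and Zfp148, Il15ra to genes that included Zfp36 and Ankrd17, and Il21r to Cfl2, Pgs1 and Zfp866. Il7r was nearest to Vps37b, Arhgap19 and Mxi1, at 0.18 to 0.23, wider than for the other 6. These distances are over 6 means that share depth and time, and carry no test.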

How the data were processed

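The deposited values are expected counts for each gene and library, without scaling; the unit was read from the values, since 28.7% of those above 0 are not whole. The submitters' processing notes name STAR, RSEM and edgeR, and build GRCm38. Tool versions and the strand setting of the counting: not given in the sources used here. Overlapping and antisense genes are therefore uncertain, although the kit was a stranded one for poly-A RNA, per the labels' protocols.

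Expected counts were rounded. edgeR 4.0.16 (R 4.3.3) was run with TMM scaling and filterByExpr (minimum count 10, minimum total count 15), which kept 14560 genes. All 24 libraries entered 1 quasi-likelihood fit with a term per group (18 residual degrees of freedom), and p-values were adjusted by Benjamini-Hochberg over all genes tested, with a threshold of 0.05. There were 9 comparisons of 2 groups, 2 interactions and 1 test over the 6 groups; DESeq2 1.42.0 was an alternative. CPM used TMM-scaled library sizes, and log2 CPM a prior count of 2. A floor of 3 counts is 0.110 to 0.286 CPM and, like the totals, covers counting error only. Exon lengths and positions come from GENCODE M21.

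The members, the pathway and marker lists, the tests and the rule for named genes were chosen with earlier results of these data known. That rule names all 7 members, the 6 ligands, up to 3 rises and 3 falls of the pathway list per comparison by log2 fold change, and for each member the 3 genes nearest in its 6 group means; Stat6 and Sh2b3 as the last falls of TLR7 at 72 h (against OVA and against TLR2), and Jak3 in TLR7 over time, lie outside the rule and were named after their values were seen. Some genes that the rule names are not reported here. Marker sums were compared by exact permutation tests, 2-sided, 72 in all. The groups did not overlap in 22, which gives 0.0286, the smallest p that 4 against 4 allows, and 0.0935 once adjusted over the 72, so none was called. Of these lists, sums for NK cells, macrophages and monocytes, dendritic cells, neutrophils, and mast cells and basophils were at most 6.82, 66.0, 9.54, 104 and 12.2 CPM in any library. No 2 libraries of a group agreed within counting noise (lowest chi-square per degree of freedom 4.58). Alternatives covered scaling, filters, a replicate block, robust empirical Bayes, the groups in the fit, DESeq2 and omitted libraries.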

Additional observations from a re-analysis of the deposited data

Results flagged for a closer look

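In 1 of the 42 sets of 4 libraries (7 genes in 6 groups), a library stood apart from the other 3 by Dixon's criterion (its gap to the nearest library, over the range, above the 95% critical value, which chance passes in about 5% of sets). It was Il7r in TLR2 at 72 h, where replicate 2 held 356 CPM and the other 3 held 143, 143 and 156 CPM. Replicate 2 is the 1 library of that group that is not intermediate on the first principal component. Without it, Il7r still rose over time in TLR2, with an adjusted p of 0.0457 by edgeR at a log2 difference of 2.55.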

How the results depend on the processing

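With RLE scaling or a stricter filter, 0 counts of members called changed by over 1.5 times. Under other settings these did (all genes called in brackets). For TLR7 against OVA at 72 h (1 member [527]), 0 were called with no filter [392], without the intermediate libraries [258], without the 5 shallow libraries [0] and with only the groups compared in the fit [29], and 2 with DESeq2 [934]. For TLR7 against TLR2 at 72 h (1 member [699]), 0 were called without the intermediate [0] or without the shallow libraries [0], 5 with only the groups compared [3302] and 3 with DESeq2 [1512]. For OVA over time (1 member, Il7r [2709]), 0 were called with no scaling [2070], no filter [1129], robust empirical Bayes [2688], without the shallow libraries [0] and with only the groups compared [0], and 4 without the intermediate libraries [7673]. For TLR7 over time (4 members [6288]), 0 were called without the shallow libraries [5], which leaves 2 libraries at 72 h, and over the 6 groups (6 members [9212]) 2 [4519]. Leaving out 1 replicate at a time gave 0 to 3 members for TLR7 against OVA at 72 h [92 to 1370], 0 to 1 for TLR7 against TLR2 at 72 h [0 to 1667], 0 to 1 for OVA over time [0 to 4709], 1 to 2 for TLR2 over time [1371 to 5200], 3 to 5 for TLR7 over time [3926 to 6816], 5 to 7 over the 6 groups [8297 to 9405], and 0 in the other 6 comparisons [at most 752]. The counts over all genes moved with these settings as well. The 1 change of sign, among the 21 member differences with an unadjusted p below 0.05, was Il7r in TLR2 against OVA at 24 h, at 1.07 without the intermediate libraries against -1.60. The cause of these changes was not tested, beyond the smaller number of libraries.

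With the replicate number as a block, 0 members were called for OVA over time [2783], where Il7r had a log2 difference of 2.05 and an adjusted p of 0.0727, and no other count of members called changed. Replicate numbers are those of the sample titles; the deposited files carry numbers 2 higher in all 24 cases, so the pairing is the same by either. The samples share only a number: same-number correlations of deviations from the group means ran from -0.616 to 0.525, 21 of 60 were over 0.1, and own numbers matched best in 18 of 60.

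The lowest member counts in a library were 129 for Il7r (OVA replicate 4 of 24 h) and 179 for Il15ra (TLR7 replicate 1 of 72 h), both in shallow libraries.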
